A study of Homo sapiens with 6 samples.

Results

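Translation initiation factors are the proteins that bring the initiator tRNA, the ribosomal subunits and the capped mRNA together. They were described here as 41 genes chosen by name from the eIF families, of 19676 genes measured in all. The cells were A375, an established melanoma line of human origin that carries mutant BRAF, and 6 Affymetrix arrays were used. At 6 h the cells had received the solvent DMSO, 10 µM vemurafenib, 100 nM AT9283, or both drugs together. At 16 h they had received DMSO or 10 µM vemurafenib. Vemurafenib blocks mutant BRAF, and AT9283 blocks Aurora kinases and other kinases. The series title concerns the expression of ATF4, a transcription factor that is made when initiation is slowed through eIF2. The labels name this cell line alone and no engineered gene.

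Initiation begins when eIF2, loaded with GTP and the initiator tRNA, joins the small ribosomal subunit together with eIF1, eIF1A, eIF3 and eIF5. The eIF4 proteins bind the cap of the mRNA and unwind it, and the eIF4E-binding proteins hold the cap-binding protein back. eIF2B recharges eIF2 with GTP after each round and is the enzyme that stress kinases block when they phosphorylate eIF2. eIF5B joins the large subunit, eIF6 keeps the subunits apart, and eIF5A acts mostly in elongation in spite of its name.

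Each condition had 1 array, so the differences below lack any check between replicates, and their precision is limited by this number. Values are log2 intensities, and a difference is treated minus control on that scale. "Rose" and "fell" are used for a difference of at least 1.5-fold, which is 0.58 on the log2 scale, with a log2 intensity of at least 6, called the floor, on at least 1 of the arrays compared. The rule goes by size and tests nothing. Between 6 h and 16 h of DMSO the arrays differed with an SD of 0.25 across genes, a loose yardstick because this pair also holds time. Array medians of the linear intensity lay between 19.79 and 21.29. Among markers of the cell type, SOX10 and MITF lay above the floor on all 6 arrays, whereas PMEL, MLANA and TYR lay below it on all 6. Of 15 markers of leukocytes, epithelial, endothelial and fibroblast cells 11 lay below it on all 6, PTPRC, EPCAM, PECAM1 and DCN among them, while CD79A, KRT18 and COL1A1 lay above it on all 6. With vemurafenib KRT18 differed by -0.61 at 6 h and -0.86 at 16 h, PDGFRB, near the floor, by 0.34 and 0.92, SOX10 by -0.82 and 0.28, and MITF by 0.61 and 0.63. Their part in the results below was not tested. In bulk RNA, fewer cells of a type and less RNA per cell cannot be told apart. DUSP6, a phosphatase induced by ERK, differed by -5.23 at 6 h and -5.22 at 16 h of vemurafenib.

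Of the 41 factors 39 had a probe set that named them alone, 38 reached the floor on at least 1 array and 36 on all 6. EIF4A1 and EIF4G3 had no such probe set and are not analysed here. EIF4A2 had 1 such probe set, which lay between 2.03 and 2.29 on all 6 arrays, so its differences carry no information. No probe set of a member lay in the table rows left out because their 6 h values were misplaced.

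Under vemurafenib more initiation factors passed the rule at 16 h than at 6 h, as did more genes over the whole array. At 6 h EIF5A2 alone fell of the 37 factors at the floor and none rose, beside 5.04% of the genes that fell and 3.32% that rose (8.36% in all). At 16 h 9 of 38 fell and 1 rose. The 9 were the cap-binding protein EIF4E, EIF3J, the helicase EIF4A3, EIF5A2, EIF3B, the eIF2B subunits EIF2B3 and EIF2B2, EIF1AX and EIF6, and the 1 that rose was EIF4E3. The 9 are 23.7% of the factors, and 14.9% of 9469 genes at the floor fell by the same rule. The 1 that rose is 2.63%, beside 13.0% of the genes. In direction, 27 of 38 factors were lower at 16 h (71.1%), beside 50% of the genes. The median difference of the factors was -0.13 and that of all genes 0.00. None of the factors fell by 2-fold under the rule, beside 5.79% of the genes, although EIF4E came close. So the factors leaned downward with small sizes. The excess in the count that fell depended on scaling. Under quantile normalization 6 factors and 1287 genes fell, in place of 9 and 1409.

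**Figure D1:**
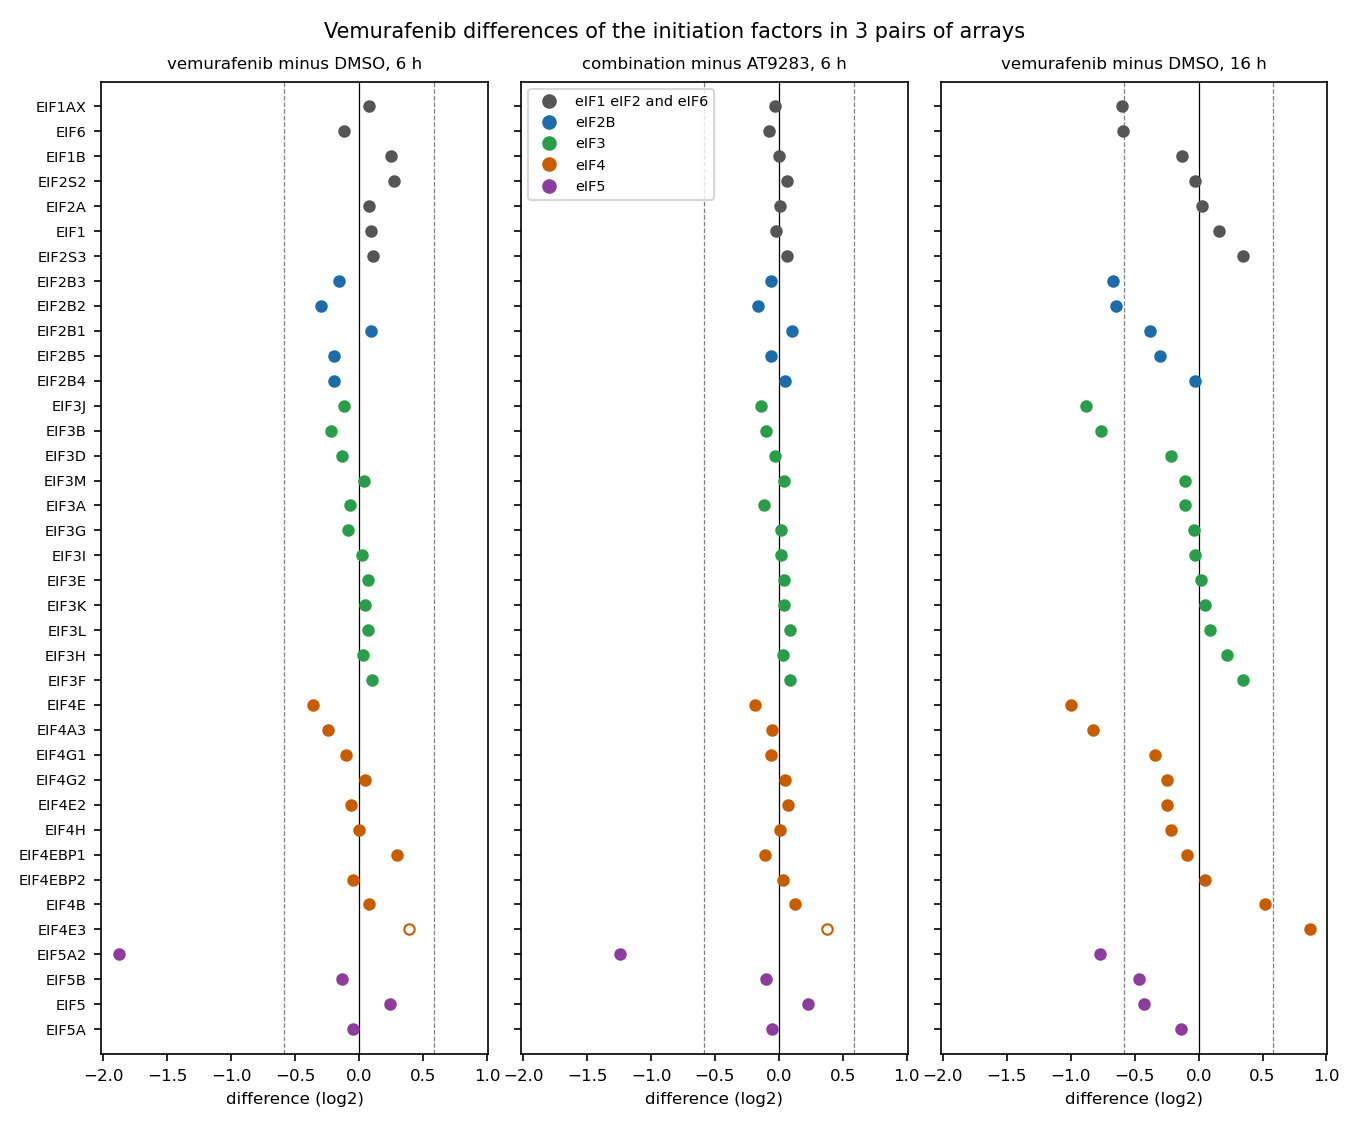
Difference on the log2 scale (x axis) of each of the 38 initiation factors (y axis, grouped by colour) in the 3 pairs of arrays that differ by vemurafenib. Filled points lie at the floor of log2 6, open points below it, and dashed lines mark 1.5-fold. EIF5A2 stands at -1.88 and -1.24 in the 6 h pairs, while at 16 h 27 of 38 points lie below 0.

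EIF4E binds the cap of the mRNA and is the target of the eIF4E-binding proteins. Its log2 intensity was 9.95 with DMSO, 10.03 with AT9283, 9.59 with vemurafenib and 9.85 with both drugs at 6 h, and 9.75 with DMSO and 8.75 with vemurafenib at 16 h. The 16 h vemurafenib array was the lowest of the 6 by a wide gap. EIF4E thus fell by just under 2.0-fold at 16 h (a difference of -1.0), after differences of -0.36 and -0.19 at 6 h without and with AT9283. Its other probe sets above the floor gave -1.23 and -1.04 at 16 h, and 0.02 and -0.28 at 6 h.

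EIF4E3, a relative of EIF4E that binds the cap in another manner, moved the other way. Its log2 intensity was 5.40 with DMSO, 5.34 with AT9283, 5.79 with vemurafenib and 5.72 with both drugs at 6 h, and 5.87 with DMSO and 6.74 with vemurafenib at 16 h. Only the 16 h vemurafenib array reached the floor. The rise at 16 h was 1.82-fold (0.87), and the size depends on a DMSO value near background. All 4 of its probe sets were higher at 16 h, by 0.87, 1.29, 1.31 and 1.01. Those that gave 1.31 and 1.01 lay below the floor on both 16 h arrays. EIF4E2, a cap-binding protein that competes with EIF4E, read 9.30 with DMSO, 9.22 with AT9283, 9.24 with vemurafenib and 9.29 with both at 6 h, and 9.10 and 8.85 at 16 h. It stayed under the rule in every comparison, with -0.25 at 16 h.

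EIF4A3 is the helicase of the exon junction complex and, unlike its relatives EIF4A1 and EIF4A2, serves mRNA quality control. It read 10.62 with DMSO, 10.60 with AT9283, 10.38 with vemurafenib and 10.55 with both drugs at 6 h, and 10.19 and 9.36 at 16 h. The fall at 16 h was 1.77-fold (-0.83). The DMSO arrays themselves differed by -0.43 between 6 h and 16 h, in the same direction.

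The cap-complex scaffold and its helpers varied less. EIF4G1, the scaffold, read 9.10, 9.03, 9.0 and 8.97 at 6 h with DMSO, AT9283, vemurafenib and both, and 8.68 and 8.34 at 16 h. The vemurafenib difference at 16 h, -0.34, was smaller in size than the -0.42 between the DMSO arrays. EIF4G2, a scaffold that does not bind EIF4E, differed by -0.25 at 16 h, and EIF4H, a helper of the helicase, by -0.22. EIF4B, which stimulates the helicase, was higher by 0.52 at 16 h, just under the rule, and its 3 probe sets gave 0.52, 0.41 and 0.35. Across the 10 eIF4 genes at the floor the 16 h median was -0.23, with a range from -1.0 to 0.87, the widest of the groups.

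The eIF4E-binding proteins, which hold back cap binding, differed from each other at 6 h. EIF4EBP1 read 10.20 with DMSO, 10.21 with AT9283, 10.50 with vemurafenib and 10.10 with both drugs at 6 h, and 10.01 and 9.92 at 16 h. The 6 h vemurafenib array was the highest of the 6. Its differences were 0.30 for vemurafenib and -0.40 for the combination against vemurafenib, which share that array, and -0.11 for the combination against AT9283. None passed the rule, and -0.40 was the lowest difference of any factor between the combination and vemurafenib. EIF4EBP2 read 7.80, 7.67, 7.76 and 7.70 at 6 h with DMSO, AT9283, vemurafenib and both, and 7.73 and 7.79 at 16 h, so it stayed within 0.14 of its control in every comparison.

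**Figure D2:**
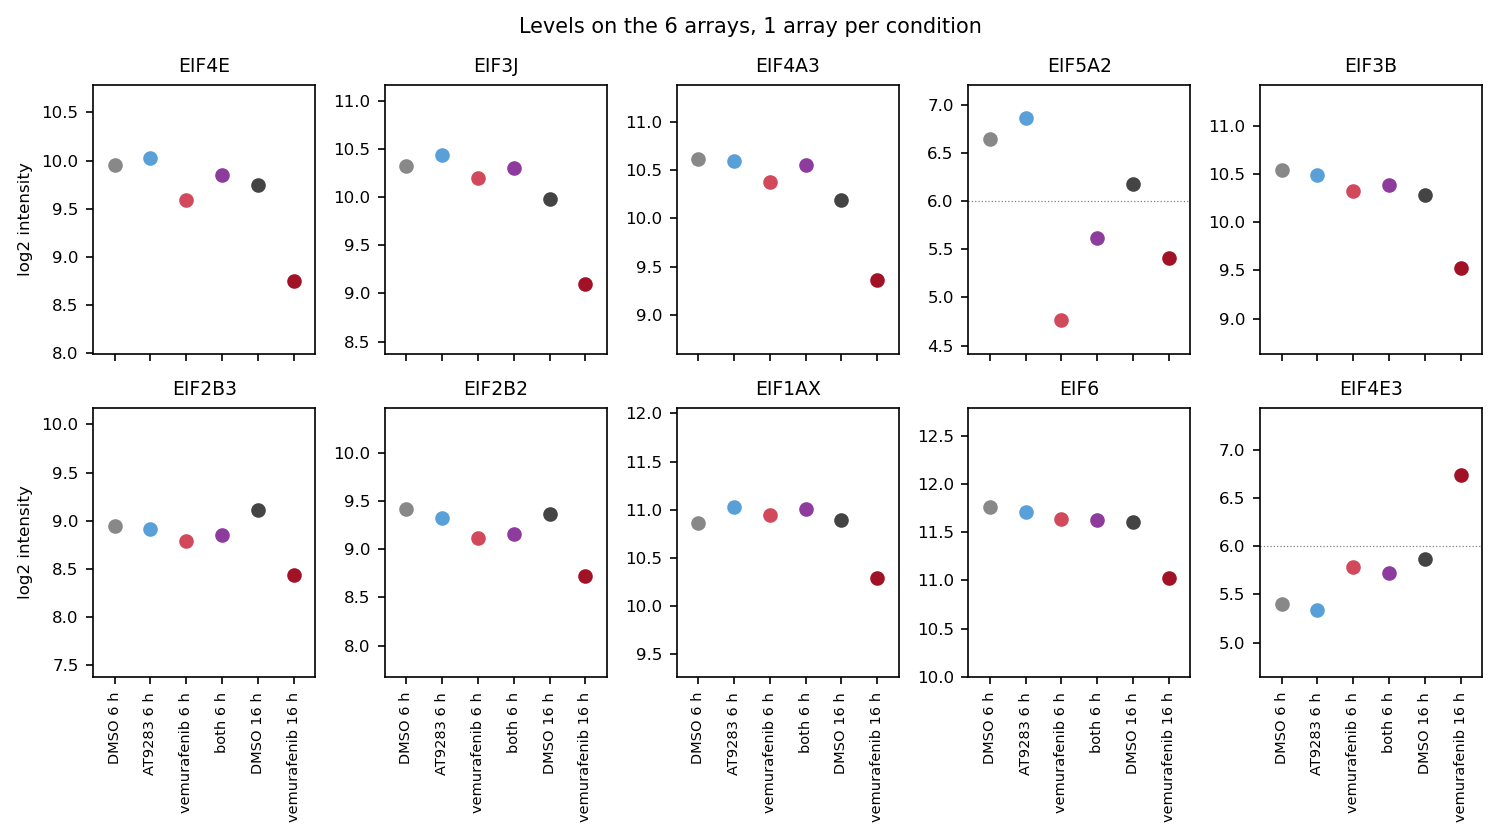
Log2 intensity (y axis, the same span in every panel) on the 6 arrays (x axis, 1 array each) for the 10 factors past 1.5-fold at 16 h. The dotted line is the floor of log2 6. The 16 h vemurafenib array is the lowest for 8 of them and the highest for EIF4E3, while EIF5A2 is lowest on the 6 h vemurafenib array.

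All 5 subunits of eIF2B, the enzyme that recharges eIF2, were lower at 16 h, and the median was -0.38. The catalytic core is formed by EIF2B5 with EIF2B3, and EIF2B1, EIF2B2 and EIF2B4 form the regulatory part that senses phosphorylated eIF2. EIF2B3 read 8.95 with DMSO, 8.91 with AT9283, 8.79 with vemurafenib and 8.85 with both drugs at 6 h, and 9.11 and 8.44 at 16 h. EIF2B2 read 9.42, 9.32, 9.12 and 9.16 in the same order at 6 h, and 9.37 and 8.72 at 16 h. These 2 subunits fell, by 0.67 and 0.65 on the log2 scale, and for both the 16 h vemurafenib array was the lowest. EIF2B2 lost the call under quantile normalization, at -0.57. EIF2B1 and EIF2B5 differed by -0.38 and -0.30.

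EIF2B4 stood apart from the others at 16 h. It read 9.05 with DMSO, 8.91 with AT9283, 8.85 with vemurafenib and 8.96 with both drugs at 6 h, and 8.74 and 8.71 at 16 h, a difference of -0.03. Its second probe set gave 0.00. At 6 h 4 of the 5 subunits were lower under vemurafenib, with a median of -0.20, but with AT9283 present the median was -0.06. With both DMSO arrays averaged as the control, the 16 h median of the group was -0.59 in place of -0.38. Between the DMSO arrays EIF2B1 and EIF2B4 differed by -0.41 and -0.31.

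The 12 measured subunits of eIF3, the large scaffold that holds the small subunit, did not move as a block. The 16 h median was -0.03, with 7 lower and 5 higher. EIF3J, a loosely bound subunit that aids recycling, read 10.32 with DMSO, 10.44 with AT9283, 10.20 with vemurafenib and 10.30 with both drugs at 6 h, and 9.98 and 9.10 at 16 h. EIF3B, a core scaffold subunit, read 10.54, 10.49, 10.32 and 10.39 in the same order at 6 h, and 10.28 and 9.52 at 16 h. They fell 1.84-fold and 1.70-fold, and each was lowest on the 16 h vemurafenib array. The second probe set of EIF3J gave -0.81, but both are marked as shared, so EIF3J has no value without such probe sets. For EIF3B the other 2 probe sets above the floor gave -0.72 and -0.94, and all 3 are marked as shared or cross-hybridizing. Without such probe sets EIF3B differed by -0.30, read from a probe set that did not reach the floor at 16 h.

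EIF3F, the highest subunit by difference at 16 h, read 11.67 with DMSO, 11.62 with AT9283, 11.77 with vemurafenib and 11.71 with both drugs at 6 h, and 11.46 and 11.81 at 16 h. The difference of 0.35 at 16 h was under the rule, and the 16 h DMSO array was the lowest of the 6. EIF3H, its partner in the complex, was higher by 0.22, and its second probe set gave -0.11. EIF3A, EIF3E, EIF3F, EIF3H, EIF3K, EIF3L and EIF3M belong to the octamer at the centre of eIF3, and EIF3B, EIF3D, EIF3G, EIF3I and EIF3J lie outside it. Split this way, which was done after the values were seen, the 7 octamer genes had a 16 h median of 0.05, from -0.11 to 0.35, and the 5 others one of -0.22, from -0.88 to -0.03. None of the latter was higher, while 5 of the former were. Among these 5 was EIF3E, by 0.02, whose second probe set gave -0.30 from values below the floor.

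In the eIF5 group all 4 genes were lower at 16 h, with a median of -0.45, while at 6 h they spread from -1.88 to 0.24. EIF5A2, a paralogue of the hypusine-carrying factor EIF5A, read 6.64 with DMSO, 6.86 with AT9283, 4.76 with vemurafenib and 5.62 with both drugs at 6 h, and 6.18 and 5.41 at 16 h. On the probe set used, all 3 arrays with vemurafenib lay below the floor and all 3 without it above. It fell 3.68-fold at 6 h (-1.88), 2.37-fold in the combination against AT9283 (-1.24) and 1.71-fold at 16 h (-0.77), and the sizes depend on values near background. Its other probe sets gave -1.32 and -1.11 at 6 h, and -0.61 and -0.45 at 16 h. At 16 h these lay below the floor on both arrays, as the second did at 6 h, so the 16 h call rests on the probe set used.

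EIF5A itself read 12.90, 12.87, 12.85 and 12.82 at 6 h with DMSO, AT9283, vemurafenib and both, and 12.92 and 12.78 at 16 h. Its differences stayed between -0.14 and 0.02. EIF5A lies near the top of the scale, where the highest gene read 13.83 to 13.89, and EIF5A2 lies near background, so the sizes of the paralogues' differences cannot be compared. EIF5, which stimulates GTP hydrolysis by eIF2, was higher at 6 h under vemurafenib (0.24) and with AT9283 present (0.23), and lower at 16 h (-0.43). Its only probe set not marked as shared or cross-hybridizing, at the edge of the floor, gave -0.41 at 6 h. EIF5B differed by -0.13 at 6 h and -0.47 at 16 h, and by -0.38 between the DMSO arrays.

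Of the remaining factors EIF1AX and EIF6 fell at 16 h. EIF1AX, which helps the subunit scan for the start codon, read 10.86 with DMSO, 11.03 with AT9283, 10.94 with vemurafenib and 11.01 with both drugs at 6 h, and 10.89 and 10.29 at 16 h. EIF6, which also serves the making of the large subunit, read 11.76, 11.71, 11.64 and 11.63 in the same order at 6 h, and 11.61 and 11.03 at 16 h. The differences of -0.60 and -0.59 were close to the threshold, and both factors lost the call under quantile normalization. EIF1AX also lost it with both DMSO arrays averaged as the control. The only probe set of EIF6 is marked as shared, so EIF6 has no value without such probe sets. The other probe sets of EIF1AX gave -0.70, -0.74 and -1.01.

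The eIF2 subunits differed among themselves at 16 h, and EIF2S1 is given with the other translation genes. EIF2S3, the subunit that binds GTP and tRNA, was higher by 0.35 at 16 h, with 0.22 and 0.38 on its other probe sets. EIF2S2 was higher by 0.27 at 6 h and differed by -0.03 at 16 h, and EIF2A, which is no subunit of eIF2, stayed within 0.11 of its control in every comparison. EIF1, which guards start codon choice, read 12.84, 12.91, 12.93 and 12.89 at 6 h with DMSO, AT9283, vemurafenib and both, and 12.85 and 13.02 at 16 h. Its direction is not settled, since the probe set used gave 0.16 at 16 h and 3 others -0.25, -0.26 and -0.27. Another, not marked as shared or cross-hybridizing, gave -0.26, and the remaining probe set at the floor gave 0.02. Its paralogue EIF1B read 10.42, 10.44, 10.67 and 10.44 in the same order, and 10.45 and 10.32 at 16 h, and stayed under the rule.

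**Figure D3:**
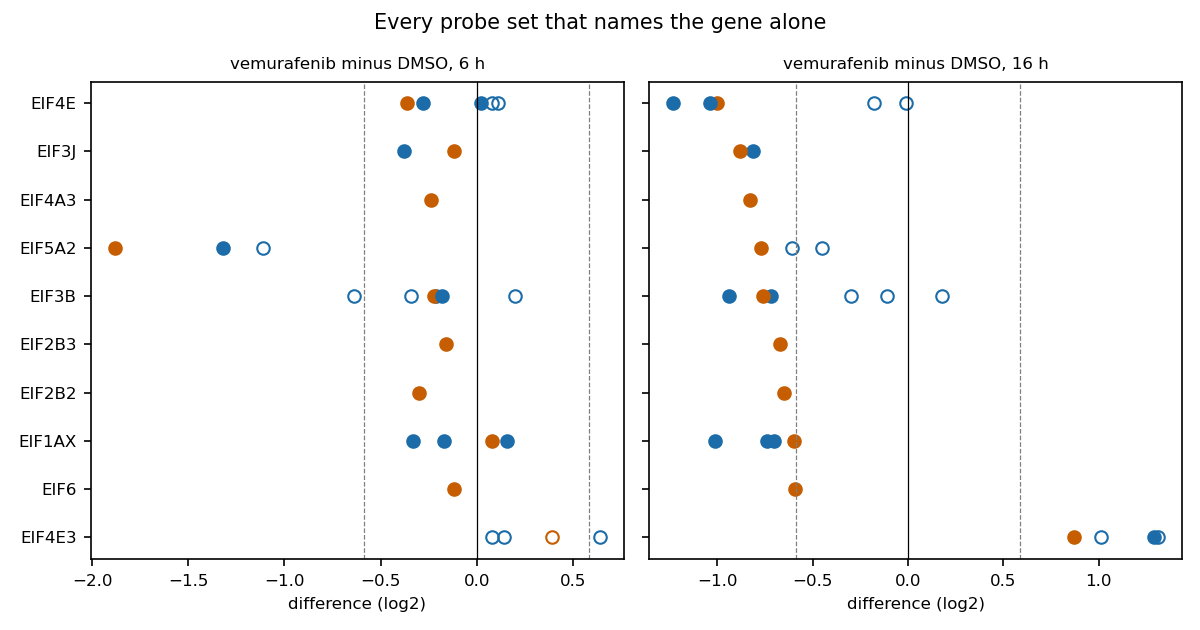
Difference on the log2 scale (x axis) for every probe set that names the gene alone, for the 10 factors past 1.5-fold at 16 h (y axis). Orange marks the probe set used, blue the others, open points lie below the floor of log2 6 on both arrays, and dashed lines mark 1.5-fold. At 16 h every probe set of EIF4E3 is higher, and every probe set of EIF4E above the floor is lower, while those of EIF1AX lie on both sides of 0 at 6 h.

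AT9283 alone moved few genes of any kind at 6 h, so a count of 0 does not set the factors apart. Against DMSO at 6 h none of 37 passed the rule, beside 0.168% of the genes, and the differences lay between -0.14 and 0.23. In the combination against DMSO EIF5A2 (-1.02) was the only 1 of 37 past the rule, beside 6.82% of the genes. It was also the only 1 of 37 in the combination against AT9283, beside 6.41%. The combination against vemurafenib put none of 36 past the rule, beside 1.20%. There all 5 eIF2B subunits were higher by 0.04 to 0.13, while all genes had a median of 0.03, and EIF4E was higher by 0.26. EIF1B, EIF2S2 and EIF2S3 were lower by -0.23, -0.21 and -0.18, and these had been higher under vemurafenib by 0.25, 0.27 and 0.11, in a comparison that shares the vemurafenib array. Between the DMSO arrays none of 37 passed the rule, beside 2.73%, and EIF5A2 (-0.46), EIF4A3 (-0.43) and EIF4G1 (-0.42) were the lowest.

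Vemurafenib could be read in 3 pairs of arrays that share no array: at 6 h, at 6 h with AT9283 in both, and at 16 h. Of 37 factors at the floor in all 3 pairs, 14 were lower in all 3 (37.8%), among them EIF4E, EIF4A3, EIF3B, EIF3J, EIF2B2, EIF2B3, EIF2B5, EIF5B and EIF6. The same held for 29.2% of 8821 genes. Not every probe set at the floor followed the 14. Another of EIF4E gave 0.02 at 6 h. With AT9283 in both, another of EIF4G1, which is also among the 14, gave 0.05, and others of EIF5B gave 0.12 and 0.03. EIF2A, EIF2S3, EIF3E, EIF3F, EIF3H, EIF3K, EIF3L and EIF4B were higher in all 3 (21.6%, beside 33.6% of the genes). For EIF2A, EIF3E and EIF3K no difference exceeded 0.08. Second probe sets were lower in all 3 for EIF3E (-0.09, -0.19 and -0.30, the last below the floor) and for EIF3H (-0.04, -0.15 and -0.11). Every probe set of EIF4B was higher in all 3. Across the 37 factors, which are not replicates, the 6 h difference and the 16 h difference had a Pearson r of 0.48, or 0.59 without EIF5A2. Over all genes it was 0.74.

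A limma fit of the 4 arrays without AT9283, with time as a block, called 0 of 38 factors at an adjusted p under 0.05 (Benjamini-Hochberg over 9653 genes), beside 1.27% of the genes. Unadjusted, 5 of the 38 factors had a limma p under 0.05, beside 2142 of 9653 genes, which is a larger share. EIF5A2 had the lowest adjusted p, at -1.33 (SE 0.34, adjusted p = 0.156 by limma), lower in 2 of 2 pairs, and EIF4E came next at -0.68 (SE 0.21, adjusted p = 0.189 by limma). The fit of all 6 arrays, which averages the 3 pairs, called 0 factors too, beside 4.78% of the genes. There 4 of 38 factors had an unadjusted limma p under 0.05, beside 3040 of 9709 genes, again a larger share. EIF5A2 was at -1.30 (SE 0.24, adjusted p = 0.0616 by limma). The error in these fits comes from how the vemurafenib effect varied from pair to pair, and replicates play no part in it.

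The sequence at the start of transcription is of interest because mRNAs that begin with a C and a run of pyrimidines, such as those of ribosomal proteins, are regulated together through mTOR and LARP1. RefSeq promoters (GRCh38.p14, 250 bases before the start and 50 from it on) were given for 34 of the 41 factors, and the first listed start was used where a gene had several. EIF2S2, EIF3A, EIF3E, EIF3G, EIF3H, EIF3L and EIF4EBP1 had no entry. A C at the annotated start followed by at least 4 pyrimidines, read on the transcribed strand only, was present in 8 of the 34 (23.5%), beside 4.04% of 27305 genes with a promoter. Among measured genes at the floor at 16 h, a set closer to the factors, the share was 5.66%. This start was present in 72.0% of 25 small subunit and 63.2% of 38 large subunit ribosomal protein promoters. Below are the starts of the factors with this feature that were highest at 16 h and of 4 without it that fell, from 20 bases before the start to 15 from it on, with the run of pyrimidines in capitals.
EIF4B: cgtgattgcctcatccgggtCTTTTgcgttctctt
EIF3F: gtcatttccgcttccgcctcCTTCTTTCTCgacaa
EIF2S3: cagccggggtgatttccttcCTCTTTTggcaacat
EIF3K: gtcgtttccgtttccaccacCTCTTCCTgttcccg
EIF4E: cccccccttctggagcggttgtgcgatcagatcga
EIF4A3: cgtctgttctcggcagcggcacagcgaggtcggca
EIF3J: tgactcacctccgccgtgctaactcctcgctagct
EIF3B: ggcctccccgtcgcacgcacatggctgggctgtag
On the plus strand they lie at chr12:53006436-53006470 (EIF4B), chr11:7987317-7987351 (EIF3F), chrX:24054936-24054970 (EIF2S3), chr19:38619168-38619202 (EIF3K), chr15:44537127-44537161 (EIF3J) and chr7:2354807-2354841 (EIF3B). On the minus strand they lie at chr4:98929119-98929153 (EIF4E) and chr17:80147114-80147148 (EIF4A3).

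The 7 factors at the floor with a pyrimidine start were EIF4B, EIF3F, EIF2S3, EIF3K, EIF2A, EIF3M and EIF3D. Their 16 h differences ran from -0.22 to 0.52, with a median of 0.05, and 5 of 7 were higher. The 24 factors without it had a median of -0.36, and 3 of them were higher. Over all measured genes at the floor, the 449 with such a start had a 16 h median of 0.08 and the 7485 without it one of -0.01. The split was made with the values known, so it is a description and has no test.

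The E-box CACGTG, whose letters read the same on both strands and which MYC and related factors bind, was found in 10 of the 34 promoters (29.4%), beside 7.43% of all those genes and 10.8% of measured genes at the floor. The 5 of them with the lowest 16 h differences were EIF4E, EIF4A3, EIF5A2, EIF2B3 and EIF4G1, and their windows are printed here, with the E-box in capitals.
EIF4E: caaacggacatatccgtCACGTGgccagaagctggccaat
EIF4A3: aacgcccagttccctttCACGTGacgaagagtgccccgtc
EIF2B3: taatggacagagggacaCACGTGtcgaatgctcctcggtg
EIF5A2: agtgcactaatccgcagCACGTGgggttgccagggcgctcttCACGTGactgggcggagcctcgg
EIF4G1: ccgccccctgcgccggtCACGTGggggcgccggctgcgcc
On the minus strand these lie at chr4:98929183-98929222 (EIF4E), chr17:80147227-80147266 (EIF4A3), chr1:44986752-44986791 (EIF2B3) and chr3:170908777-170908841 (EIF5A2), and on the plus strand at chr3:184314522-184314561 (EIF4G1). EIF4E and EIF4G1 each held a second E-box further from the start. The motif was also present for EIF1B, EIF4H, EIF4B, EIF3F and EIF3K, whose 16 h differences ran from -0.22 to 0.52. The 10 factors with an E-box had a 16 h median of -0.28 and the 21 at the floor without it one of -0.25. The motif TGATGCAA, bound by ATF4 with C/EBP proteins, was searched on both strands and found in 0 of the 34. It was found in 0.923% of all those genes and 0.504% of measured genes at the floor, so 0 does not set the factors apart. Over every listed start of the 9 factors with several, the counts of 8, 10 and 0 factors were the same.

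Other genes of translation give the setting. Of 10 further initiation genes at the floor 9 were lower at 16 h and 3 fell, with a median of -0.13. EIF2S1, the eIF2 subunit that stress kinases phosphorylate, differed by -1.02, and EIF1AD by -0.97. Of 12 elongation and termination genes 3 fell and 2 rose. ABCE1, which splits ribosomes after termination, differed by -1.12 and DPH2, which modifies the elongation factor EEF2, by -0.93. EEF1A2 differed by 1.39 and EEF2K, the kinase of EEF2, by 0.65. The size for EEF1A2 depends on a DMSO value of 5.95, just below the floor. Of 11 poly(A)-binding and cap regulators MKNK2, a kinase of EIF4E, alone rose, by 0.82. The recorded differences of the cytosolic ribosomal proteins were small. The 21 small subunit genes and the 31 large subunit genes at the floor each had a median of 0.05 at 16 h, 18 and 27 of them were higher, and none passed the rule. At 6 h their medians were 0.04 and 0.05. Of these 52 genes 50 lay in the brightest 1% of genes on all 6 arrays, near the top of the scale, and whether the arrays compressed their differences was not tested.

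**Figure D4:**
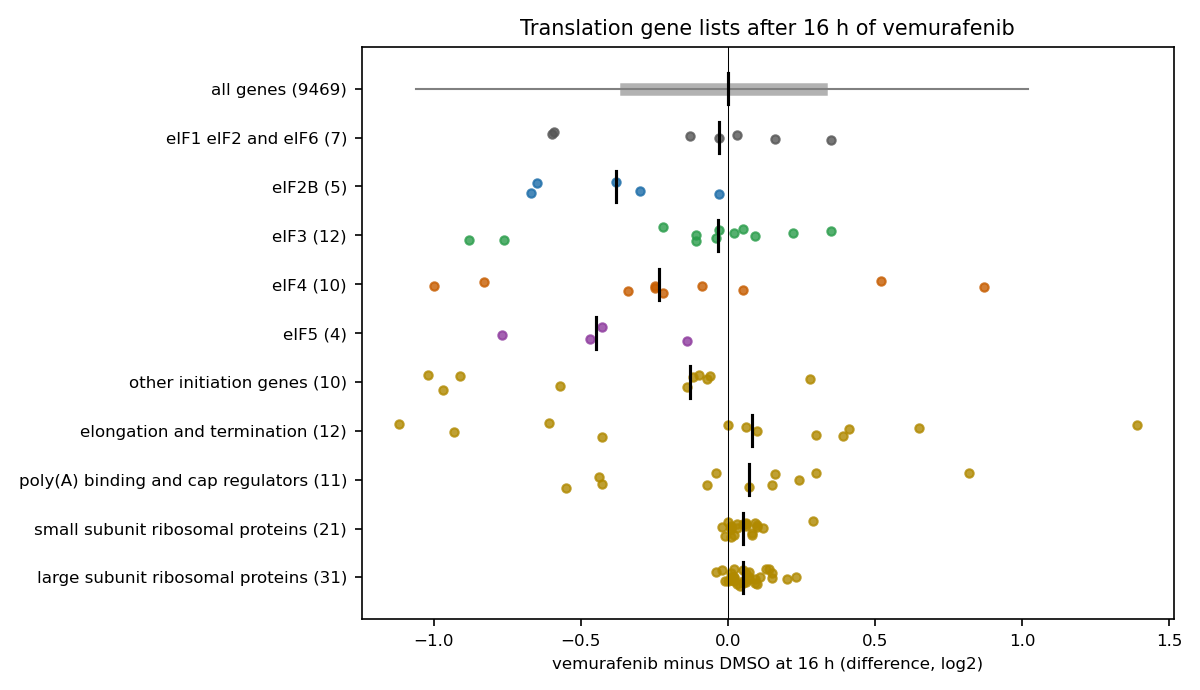
Difference on the log2 scale between vemurafenib and DMSO at 16 h (x axis) for the groups of initiation factors and other translation genes at the floor (y axis, number of genes in brackets). Points are genes, black ticks are medians, and for all genes the thick bar spans the quartiles and the thin line the 5th to 95th percentile. The eIF2B and eIF5 medians lie at -0.38 and -0.45, while both ribosomal protein medians lie at 0.05, from probe sets near the top of the intensity scale.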

How the data were processed

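RNA of A375 cells was hybridised as biotin-labelled cRNA to 6 arrays. Each deposited value is the linear intensity of 1 probe set. The submitters' processing notes name RMA and no other tool. For its version, and for joint normalization of the arrays, the sources used here give nothing. Values were converted to log2. Of 54675 probe sets 41097 had 1 gene symbol in the platform annotation, 1801 had more than 1, and 11777 were absent from it. Members and genes were read only from the first kind, without the 62 control probe sets. The symbols of the 39 measured members equalled those RefSeq gives for their gene identifiers.

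In 2 ranges of identifiers, 1102 probe sets in all, the 6 h values sat on the wrong rows and were left out. There the DMSO arrays correlated at 0.4396 as deposited and 0.9833 in the other sort order. A further 16 such probe sets lie in small blocks, left out in an alternative. For each gene the probe set with the highest mean was used. The 7 differences were read by size, 1.5-fold with log2 6 on the higher array. Limma 3.58.1 (R 4.3.3) fitted vemurafenib with time as a block, with a trended prior and Benjamini-Hochberg adjustment, after tests on simulated data. Each array was assigned from its label. The members and lists were chosen with earlier results of these data known. All 41 members are accounted for; values on every array are given for members past 1.5-fold, the extremes of each group at 16 h and paralogues, and other lists by up to 2 genes at each end. The eIF3 split, the genes listed by shared direction and the promoter features were chosen after values were seen.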

Additional observations from a re-analysis of the deposited data

Results flagged for a closer look

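On the probe set used, EIF5 differed in opposite directions at the 2 times under vemurafenib, by 0.24 at 6 h and by -0.43 at 16 h. Each is larger in size than 0.18, the SD of a single array taken from the DMSO pair. Against 0.25, the SD of the differences in that pair, only the 16 h value is larger. With 1 array per condition the difference between the times was not tested. At 6 h its other probe sets gave 0.26, 0.31, 0.18 and -0.41, the last at the edge of the floor. That last one is the only probe set of EIF5 not marked as shared or cross-hybridizing, and it was lower at both times. At 16 h all 5 were lower, by -0.31 to -0.71.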

How the results depend on the processing

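Counts and medians were recomputed under up to 10 alternatives of scaling, probe set choice, rows kept, floor and control (9 where the control does not apply, 6 for limma), 1 of them (the order of the 6 h values restored) added after seeing the data. Of the comparisons with the reported counts and medians 397 stayed within the tolerance, which was 1.5 times for counts and 0.18 for medians, and 17 moved. The number of factors that fell at 16 h ranged from 6 to 10. EIF4E, EIF4A3 and EIF2B3 fell under all 10 alternatives, but several of these could not have changed the outcome. The rows kept, left out or reordered held 0 probe sets of members, so those alternatives repeat the reported values and add to the 397. EIF4A3 and EIF2B3 had 1 probe set each, not marked as shared, so the choice of probe set could not change them. EIF4E, EIF4A3 and EIF2B3 lay above log2 8 on both 16 h arrays, so the floor could not change them either. With the mean of all probe sets 0 factors fell at 6 h or in the combination against DMSO, and 0 rose at 16 h, because the means lay below the floor: EIF5A2 still differed by -1.44 at 6 h and EIF4E3 by 1.12 at 16 h. With a floor of log2 8 the same counts, and that for the combination against AT9283, were 0, and the eIF5 median between the DMSO arrays was 0.00. Without shared probe sets the eIF5 median was -0.41 at 6 h and 0.34 for the combination against vemurafenib, and 2 factors fell in the combination against AT9283. With no floor 1 factor rose in the combination against vemurafenib. The eIF2B median at 16 h was -0.59 when the control was the average of both DMSO arrays. Limma called 123 genes, 464 with all 6 arrays, 43 without a trend, 80 without a filter and 71 without shared probe sets, with 0 factors in each. Unadjusted, 4 to 6 factors had a limma p under 0.05, in each fit a smaller share than that over all genes. Median centring turned the share of higher genes past the rule between the DMSO arrays from 56.7% to 37.4%. Quantile normalization turned it for vemurafenib at 16 h from 46.7% to 52.3%, where 6 factors and 1287 genes fell. No replicate block could be fitted because each condition had 1 array, and the pairs of the limma fits are those of time and AT9283. Values near log2 6, those of EIF5A2 and EIF4E3 here, are limited by background.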

Other observations

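EIF5A2 differed by 0.86 between the combination and vemurafenib alone on the probe set used and by 0.12 and 0.27 on the others, below the floor on both arrays each time, so the arrays do not settle whether its level was higher in the combination. EIF1 had 6 probe sets at the floor, and under vemurafenib at 6 h they ranged from -0.42 to 0.21. The 3 bright cross-hybridizing ones gave -0.25, -0.20 and -0.19 there, and the brightest, the one used, gave 0.09.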
